A study of Mus musculus with 27 samples.

Results

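The Dynlt1 copies Dynlt1a, Dynlt1b, Dynlt1c and Dynlt1f, their neighbour Tmem181b-ps and the mitochondrial gene Nnt were followed through mouse muscle injury and repair. These 6 genes were taken by gene name, and were chosen by their TPM in KO against WT libraries in these same data, which set the 2 labels apart. They held 7 of the 55852 rows in the deposited table of injured muscle, since Nnt has 2 rows, and 7 of the 55677 rows in a second table with the controls. Of the 7 rows, 6 were among the 15718 that passed a filter of at least 1 TPM (the length-corrected share of a gene in its library) in at least 3 libraries, and the second Nnt row did not pass. The KO against WT values below are therefore given as a description without a test. In that description the 6 genes were uneven: the KO libraries of Dynlt1b lay below its WT libraries on each of 4 days, which was not so for any of the other 5 genes. This held for 0.00636% of all genes tested, and nothing is read from it, since such values chose the genes.

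The gastrocnemius muscle of male mice was injected with cardiotoxin (CTX, a snake venom toxin that destroys muscle fibres), and RNA of WT and Gsdme KO mice was sequenced 1, 4, 7 and 14 days later (D1, D4, D7, D14). Each genotype and day had 3 libraries, 24 in all, and 3 further libraries came from control muscle of WT mice. The study's methods describe uninjured muscle of the opposite leg, so control and WT D1 may share mice, which the labels do not tie together. Gsdme encodes gasdermin E, a pore-forming protein of pyroptosis, and the study describes its Gsdme KO mice as a global KO. The sample titles say KO, whereas the genotype field says knockdown, and the deposited description names thigh muscle and an unloaded control. The study's methods and supplement give WT mice as purchased C57BL/6J, list another supplier for the Gsdme KO mice, and also describe littermates of heterozygous crosses. Which of these bred the sequenced mice is not given in the sources used here, and the ages are not given either. Strain background was not tested, since a TPM table holds no genotypes.

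Dynlt1, also called Tctex-1, is a light chain of cytoplasmic dynein, the motor that carries cargo along microtubules towards the cell centre. The mouse genome holds several copies of it on chromosome 17, interleaved with copies of Tmem181, which encodes a membrane protein and of which Tmem181b-ps is a transcribed pseudogene. Nnt encodes nicotinamide nucleotide transhydrogenase, an enzyme of the inner mitochondrial membrane that uses the proton gradient to make NADPH, and C57BL/6J mice are known for a deletion of several of its exons.

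Positions are those of GENCODE release M21 on build mm10. Dynlt1a (ENSMUSG00000092074) lies at chr17:6306340-6317500 on the minus strand and overlaps the end of Tmem181a (chr17:6256860-6308314, plus strand). Dynlt1b (ENSMUSG00000096255) follows at chr17:6430112-6436296 on the plus strand, and Tmem181b-ps (ENSMUSG00000096780) at chr17:6438524-6467022 on the minus strand. Dynlt1c (ENSMUSG00000000579) lies at chr17:6601671-6609774 on the plus strand, and Dynlt1f (ENSMUSG00000095677) at chr17:6646602-6655900 on the minus strand. Nnt (ENSMUSG00000025453) is on another chromosome, at chr13:119335448-119408997 on the minus strand, and Gsdme is on chromosome 6. The second Nnt row (ENSMUSG00000116207) covers chr13:119335528-119408952, inside the first.

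The annotated coding sequences of the 4 Dynlt1 copies are nearly the same, which bears on how well the rows can be told apart. Each has 342 coding bases with the stop codon, and Dynlt1a, Dynlt1c and Dynlt1f have 0 differences among them. Dynlt1b differs from each of them at 1 coding base, A21C from Dynlt1b to Dynlt1f, counted from 1 at the first base of the start codon. That base lies in the first coding exon, whose 27 coding bases are shown here because they hold the only coding difference, with the differing base in capitals (GENCODE M21, mm10).
Dynlt1a, chr17:6317374-6317400, minus strand: atggaagacttccaggcctcCgaggag
Dynlt1b, chr17:6430212-6430238, plus strand: atggaagacttccaggcctcAgaggag
Dynlt1c, chr17:6601810-6601836, plus strand: atggaagacttccaggcctcCgaggag
Dynlt1f, chr17:6655774-6655800, minus strand: atggaagacttccaggcctcCgaggag
Over the full transcripts of 771 bases, Dynlt1b and Dynlt1f differ at 7 positions. Of the 672 windows of 100 bases in the Dynlt1b transcript, 351 (52.2%) are also found in Dynlt1f and 451 (67.1%) in Dynlt1c, and 121 (18%) in no other Dynlt1 transcript examined. The processed pseudogene Dynlt1-ps1 on chromosome 6 has the same 342 bases as the coding sequences of Dynlt1a, Dynlt1c and Dynlt1f, so that 0 of its 243 windows are its own. Tmem181b-ps is easier to tell apart, with 75% of its windows in neither Tmem181a nor Tmem181c-ps. All 3240 windows of the second Nnt row are found in the first. How reads shared by copies were assigned is not given in the sources used here, so the values of single Dynlt1 rows are uncertain.

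The libraries had between 11785 and 14704 genes with at least 1 TPM, and their 50 most abundant genes held between 25.4% and 61.4% of the TPM. A TPM keeps no read total, so depth is unknown and no counting interval was computed. KO D4 replicate 2 stood apart from the other KO D4 libraries, with 12961 genes with at least 1 TPM against 13960 and 14380, and its weight is given beside the results that rest on it. As a check of the labels, Gsdme itself was 3.59 ± 1.11 TPM (SD, n = 3) in WT D1 and 1.66 ± 0.459 in KO D1, and WT and KO libraries overlapped on D14 only, between 1.46 and 2.26 TPM in WT and between 1.27 and 1.96 in KO. Its average KO minus WT difference was -0.55 ± 0.0949 (SE) on the log2(TPM + 1) scale with adjusted p = 0.0664 (limma), and a TPM per gene does not show which exons were read. All 6 myofibre markers were detected in every group, and the markers thus went with the muscle label. Nothing in the labels says that the 3 libraries of a group came from separate mice, so p-values measure the spread between these libraries.

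To describe how the cluster behaved with genotype, Dynlt1b is given first, as its most abundant copy. Dynlt1b was at 136.47, 185.41 and 133.94 TPM in the 3 WT D1 libraries and at 90.98, 75.12 and 89.59 in KO D1. On D4 it was at 267.72, 218.55 and 207.4 TPM in WT and at 123.1, 60.6 and 109.15 in KO. Every KO library was below every WT library on both days. On D7 the WT libraries held 154.8, 124.99 and 122.41 TPM and the KO libraries 64.2, 60.42 and 72.11. On D14 the values were 85.01, 93.86 and 77.32 TPM in WT and 48.38, 49.82 and 48.38 in KO. The KO mean was thus 56.1%, 42.2%, 48.9% and 57.2% of the WT mean on D1, D4, D7 and D14. Even the highest KO D4 library stayed below the WT D1 libraries. Control muscle, at 97.72, 96.89 and 86.52 TPM in the other table, was above all KO libraries of D7 and D14. Its range overlapped those of KO D1 and KO D4, and also that of WT D14. The KO minus WT difference averaged over the days was -0.98 ± 0.1 (SE) on the log2(TPM + 1) scale, and -0.9 without KO D4 replicate 2.

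Across all 15718 genes tested, 1 gene (0.00636%) had its KO libraries all below its WT libraries on each of 4 days, and that gene was Dynlt1b. By day, 1 of the 6 genes had no overlap in this direction on D1, where the share over all genes was 3.38%. On D4 it was 4 of 6 (11.2% of all genes), on D7 5 of 6 (14.6%) and on D14 2 of 6 (1.04%), and none of the 6 had its KO libraries all above WT on any day. These shares were among the values by which the genes were chosen, so nothing is read from them.

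**Figure D1:**
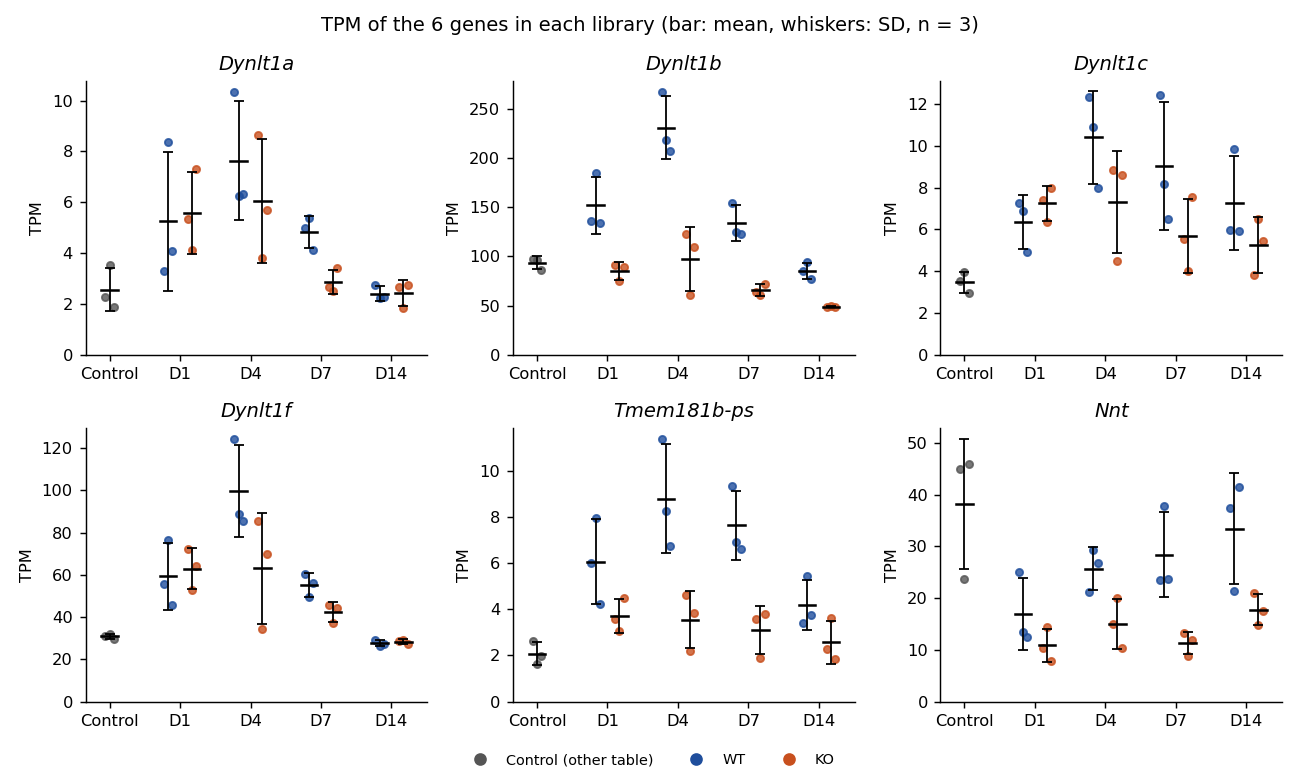
TPM (y axis) of each of the 6 genes by day (x axis) for control, WT and KO muscle, 1 point per library, with bars at the mean and whiskers at the SD of 3 libraries. Dynlt1b separated WT from KO on every day, Nnt on D4, D7 and D14, Tmem181b-ps and Dynlt1f on D4 and D7, and Dynlt1a on D7. Of all genes tested, 3.38%, 11.2%, 14.6% and 1.04% had their KO libraries all below WT on D1, D4, D7 and D14. Control values come from the other table.

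Tmem181b-ps, the neighbour of Dynlt1b, was at 6.02, 7.93 and 4.24 TPM in WT D1 and at 3.6, 3.04 and 4.5 in KO D1, so that the groups overlapped. On D4 it was at 11.35, 8.27 and 6.73 TPM in WT and at 4.61, 2.19 and 3.83 in KO. On D7 the WT libraries were at 9.35, 6.93 and 6.6 TPM and the KO libraries at 3.56, 1.9 and 3.81. There was no overlap on D4 or D7, with KO means at 40.3% and 40.5% of WT. On D14 the libraries overlapped again, at 3.39, 5.42 and 3.76 TPM in WT and 2.28, 3.62 and 1.83 in KO. Control muscle of WT mice was at 2.61, 1.62 and 1.99 TPM in the other table. Its mean of 2.07 was below every KO mean, of which the lowest was 2.58 on D14. A low level was thus not particular to KO, although that table also gave lower values in WT D1 (mean 5.11 against 6.06 TPM). The average KO minus WT difference of Tmem181b-ps was -0.83 ± 0.136 on the log2(TPM + 1) scale. Of its relatives, Tmem181a, the coding gene, had KO means between 62.2% and 131% of WT and overlapped on every day, and Tmem181c-ps was at or under 0.51 TPM in WT and listed at 0 in all KO libraries.

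Nnt was at 25.05, 13.42 and 12.47 TPM in WT D1 and at 10.32, 14.38 and 7.92 in KO D1, where the groups overlapped. On D4 it was at 21.1, 29.29 and 26.78 TPM in WT and at 14.92, 19.97 and 10.36 in KO. On D7 it was at 23.55, 37.86 and 23.75 TPM in WT against 13.18, 8.9 and 11.88 in KO. On D14 the WT libraries held 37.48, 21.36 and 41.48 TPM and the KO libraries 20.94, 14.9 and 17.47. From D4 on, KO was below WT in every library, although on D14 the lowest WT and highest KO library were close. The KO mean was 64%, 58.6%, 39.9% and 53.1% of the WT mean on D1, D4, D7 and D14, and the average difference was -0.85 ± 0.15 on the log2(TPM + 1) scale. The second Nnt row was at 0 in most libraries, with its highest values of 2.55 TPM in KO D1 replicate 1 and 1.9 TPM in WT D14 replicate 2, and adding it moved the average difference only to -0.83. As mm10 is a C57BL/6J genome, reads from exons which that strain lacks could not be counted in either row.

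The other copies differed less. Dynlt1f, the second most abundant copy, was at 55.63, 76.72 and 45.53 TPM in WT D1 and at 72.04, 52.68 and 64.03 in KO D1, and on D14 at 29.31, 26.38 and 27.31 in WT and 28.78, 29.39 and 27.13 in KO. It overlapped on both days, with KO means at 106% and 103% of WT. On D4 it was at 124.52, 88.71 and 85.51 TPM in WT and at 85.5, 34.25 and 69.8 in KO, with the nearest libraries of the groups almost touching. On D7 it was at 60.47, 49.35 and 56.12 TPM in WT and at 45.64, 37.12 and 44.54 in KO, again without overlap. Dynlt1a, at between 1.83 and 10.34 TPM over the injured libraries, was without overlap on D7 only, and Dynlt1c, at between 3.81 and 12.44 TPM, overlapped on all days. The average KO minus WT differences on the log2(TPM + 1) scale were -0.24 ± 0.124 for Dynlt1f, -0.2 ± 0.14 for Dynlt1a and -0.32 ± 0.138 for Dynlt1c, beside a median of -0.07 over all genes tested. Without KO D4 replicate 2 they were -0.14, -0.13 and -0.25, and on D4 alone Dynlt1f went from -0.72 to -0.34, Dynlt1a from -0.32 to -0.07 and Dynlt1c from -0.49 to -0.21. For Tmem181b-ps and Nnt the average without that library was -0.77 and -0.9.

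**Figure D2:**
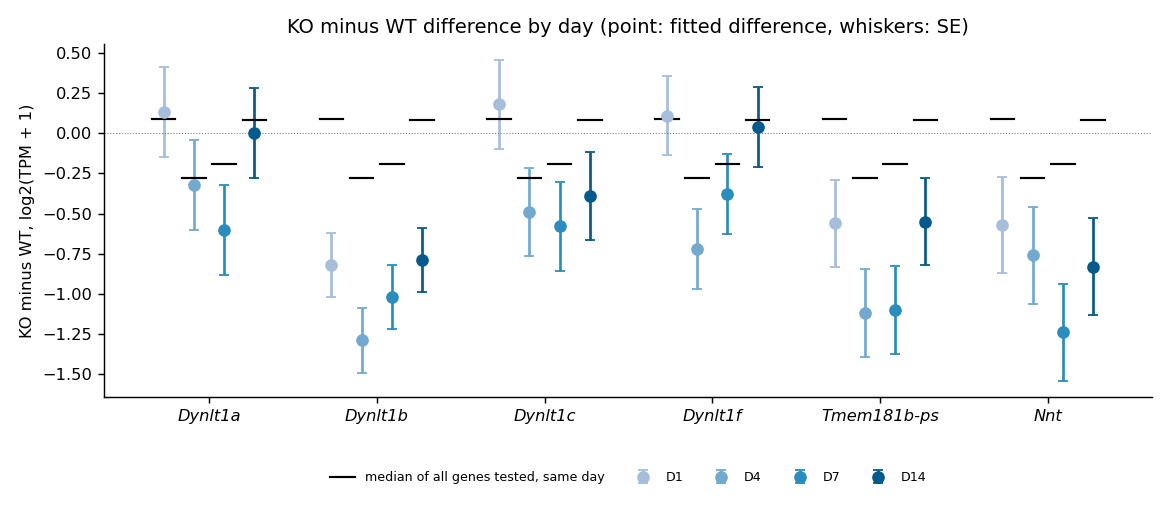
KO minus WT difference on the log2(TPM + 1) scale (y axis) for each gene (x axis), 1 point per day with whiskers at the SE of the fit, and black ticks at the median of all genes tested on that day. Dynlt1b, Tmem181b-ps and Nnt lay below the tick on each day, with Dynlt1b between -1.29 and -0.79.

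To set the copies against each other within a library, the share of each in the summed TPM of the 4 Dynlt1 copies was computed, which does not change with a library's scale. Dynlt1b held between 64.5% and 71.1% of the sum in the 12 WT libraries (mean 67.6% ± 2.08, SD) and between 51.8% and 58.8% in the 12 KO libraries (mean 55.9% ± 2.22). The ranges did not overlap over all 4 days, and the 3 control libraries, between 70.9% and 72.6%, were at the WT side. Dynlt1f took most of the rest, with between 19.9% and 30% in WT and between 32.4% and 41% in KO. Dynlt1a held between 1.63% and 4.33% and Dynlt1c between 2.48% and 7.44% over all injured libraries, with WT and KO overlapping. The ratio of Dynlt1b to Dynlt1f was 2.62 ± 0.389 in WT and 1.56 ± 0.166 in KO. In contrast, the ratio of Dynlt1b to Tmem181b-ps overlapped, at between 16.6 and 31.6 in WT and between 13.8 and 31.8 in KO. It was not the same in control muscle, where it was between 37.4 and 59.8, above both ranges. WT D1 was between 27.1 and 35.8 in the table with the controls. Summed TPM of all 4 was lower in KO too, without overlap on any day, with means of 72.2%, 49.9%, 57.3% and 69.2% of WT on D1, D4, D7 and D14. The shares rest on the same contrast that chose the genes, so no test was made.

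**Figure D3:**
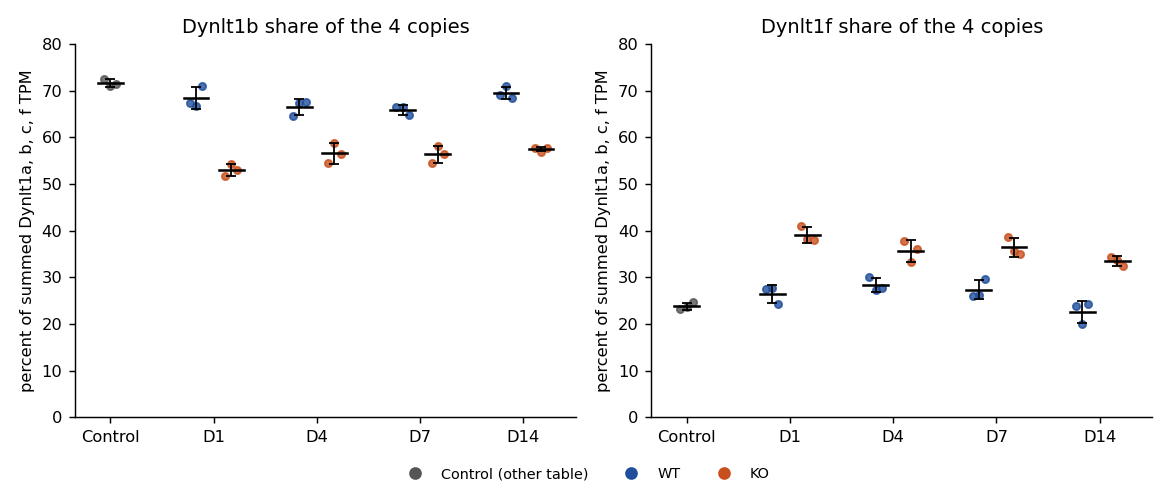
Share of Dynlt1b (left) and of Dynlt1f (right) in the summed TPM of Dynlt1a, b, c and f (y axis, percent) by day (x axis), 1 point per library, with bars at the mean and whiskers at the SD of 3 libraries. WT and control libraries held at least 64.5% as Dynlt1b and KO libraries at most 58.8%.

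To compare the early injury with uninjured muscle, WT D1 was set against control within the table that holds both. In control muscle Nnt was at 44.95, 23.68 and 45.82 TPM and in WT D1 at 24.4, 13.19 and 12.24, with 1 library of each group inside the range of the other. Nnt fell by 1.16 on the log2(TPM + 1) scale (SE 0.329, adjusted p = 0.0164, limma). The Dynlt1 copies and Tmem181b-ps were higher in WT D1, by 0.69 for Dynlt1b (adjusted p = 0.0101), 0.73 for Dynlt1c (0.0217), 0.9 for Dynlt1f (0.00666) and 0.98 for Tmem181b-ps (0.00916, limma), whereas Dynlt1a, at 0.67, did not pass (0.0959). In all, 5 of 6 genes passed the test, beside 61.1% of all 13041 genes tested. The median of all genes was itself 0.66 higher in WT D1, so that Dynlt1b lay only 0.03 above it, Tmem181b-ps 0.32 above it and Nnt at -1.82 relative to it. After median-of-ratios scaling or quantile normalization, Nnt was the only one of the 6 that passed, at -1.85 with adjusted p = 0.00753 and 0.00891 (limma), and the direction of Dynlt1b, Dynlt1c and Dynlt1a flipped in one or the other.

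Without control replicate 1 the drop of Nnt was -1.01 (adjusted p = 0.0614), without control replicate 3 it was -1 (0.059), and with no filter on low genes it also missed the threshold (0.0593, limma). Dynlt1c lost its call without control replicate 1 or 3 or WT D1 replicate 1, with adjusted p of at most 0.0915 (limma). The summed level of 6 of 6 myofibre markers was between 97800 and 103000 TPM in control and between 50100 and 104000 in WT D1, and their part in the Nnt difference was not tested. In bulk muscle, fewer fibres and less RNA per fibre cannot be told apart. The study describes a batch of injured and uninjured muscle 1 day after injury and another of WT and KO muscle on all 4 days, which both include injured muscle of D1, while WT D1 is held by both tables. Which batch its libraries belong to is therefore unclear, and injury and batch, or genotype and batch on D1, cannot be told apart. The WT step from D1 to D4, the averages over days and the F test between days also use WT D1 and share this limit.

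To follow the genes through repair, neighbouring days were compared within each genotype. As the batch of WT D1 is unclear, day and batch cannot be told apart in its step to D4. In WT, Dynlt1b rose from D1 to D4 by 0.61 (SE 0.2, adjusted p = 0.0372) and Dynlt1f by 0.75 (SE 0.248, adjusted p = 0.0382, limma), beside a median of 0.17 over all genes. For both, every WT D4 library was above every WT D1 library. They were the 2 of 6 that passed, where 19.8% of all genes did. From D4 to D7 the same pair fell, Dynlt1b by 0.78 (SE 0.2, adjusted p = 0.0213) and Dynlt1f by 0.82 (SE 0.248, adjusted p = 0.0385, limma), beside a median of -0.24 and 12.3% of all genes passing. These 4 changes passed under both scaling alternatives too. They rested on single libraries. The rises lost their call without WT D1 replicate 1 or 3 or WT D4 replicate 1 or 2 (adjusted p of at most 0.142 for Dynlt1b and 0.18 for Dynlt1f), and in a fit of the compared groups alone (0.135 and 0.125, limma). The fall of Dynlt1b lost it without WT D4 replicate 1 or WT D7 replicate 2 or 3 (at most 0.112), and that of Dynlt1f without WT D4 replicate 1 or 2 or any WT D7 library (at most 0.194, limma).

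From D7 to D14 in WT, 4 of 6 genes fell, beside 31.8% of all genes and a median of -0.45. Dynlt1f fell by 0.97 (SE 0.248, adjusted p = 0.012), from between 49.35 and 60.47 to between 26.38 and 29.31 TPM, which was also past the test under both scalings. Dynlt1b fell by 0.64 (adjusted p = 0.0246), Dynlt1a by 0.77 (0.0433) and Tmem181b-ps by 0.74 (0.0452, limma), and these 3 did not pass under either scaling, where Dynlt1b was at -0.11 and -0.26. Dynlt1f lost its call without WT D7 replicate 1 or WT D14 replicate 3 (adjusted p of at most 0.0627), Dynlt1b without WT D7 replicate 1 or WT D14 replicate 1 or 3 (at most 0.115, limma). The calls of Dynlt1a and Tmem181b-ps were lost without 9 and 11 of the 24 libraries, among them every WT D7 library for both and KO libraries outside the comparison, with adjusted p of at most 0.127 and 0.177 (limma). By D14 the WT level of Dynlt1f, 27.7 TPM in the mean, was near the 31.05, 32.2 and 29.83 TPM of control muscle in the other table. For Nnt the differences were 0.63 from D1 to D4, 0.11 to D7 and 0.21 to D14, the latter pair beside medians of -0.24 and -0.45 over all genes, and none passed the test (adjusted p = 0.155, 0.814 and 0.586, limma). Its WT mean was 17, 25.7, 28.4 and 33.4 TPM on D1, D4, D7 and D14, and the libraries of neighbouring days overlapped.

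In KO, no step passed for any of the 6 genes, beside 19.4% of all genes from D1 to D4, 0% from D4 to D7 and 0.56% from D7 to D14 (limma). At an unadjusted p under 0.05 there were 0, 2 and 1 of the 6 in these steps, with Dynlt1a at -0.82 and Dynlt1b at -0.51 from D4 to D7 and Dynlt1f at -0.56 from D7 to D14, beside 5728, 1555 and 3035 of all genes. The missing D4 to D7 calls rested on KO D4 replicate 2: without it, Dynlt1b was at -0.82 (adjusted p = 0.00557), Dynlt1f at -0.86 (0.0156) and Dynlt1a at -1.07 (0.0321, limma). How many of all genes passed without that library was not computed, so nothing is read from these calls about the 6 genes. Under median-of-ratios scaling, Dynlt1b rose from D1 to D4 in KO by 0.34 (adjusted p = 0.0263, limma), where 4049 of all genes passed. The means of Dynlt1b in KO had the same order of days as in WT, with its highest mean on D4 (97.6 ± 32.8 TPM) and its lowest on D14 (48.9 ± 0.831).

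**Figure D4:**
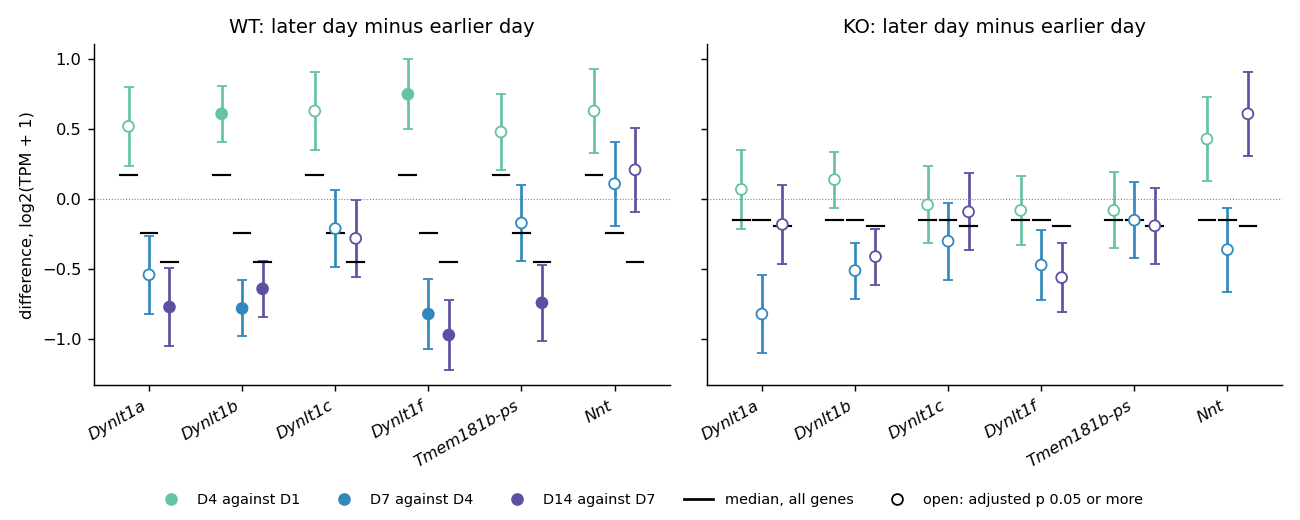
Difference between neighbouring days on the log2(TPM + 1) scale (y axis) for each gene (x axis) in WT (left) and KO (right), with whiskers at the SE, filled points where the adjusted p was under 0.05 and black ticks at the median of all genes. In WT, Dynlt1b and Dynlt1f rose to D4 and fell to D7 with filled points, and in KO no point is filled.

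A step past the test in WT and not in KO is not a difference between them, so the KO minus WT difference was compared between days in an F test. It passed for 0 of the 6 genes and for 0% of all genes (limma), and for 0 of the 6 at an unadjusted p under 0.05. The lowest of the 6 was Dynlt1f, with adjusted p = 0.527, and 1203 genes had an unadjusted p under 0.05. For Dynlt1b the adjusted p was 0.571 and for Nnt 0.667 (limma). A change of the genotype difference over time was therefore not detectable with 3 libraries a group.

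The summed level of 5 of 5 macrophage and leukocyte markers in WT overlapped between D1 (655 to 2950 TPM) and D4 (2170 to 4260 TPM). It was between 1110 and 1530 TPM on D7 and between 133 and 478 on D14. In KO it was between 2560 and 3590 TPM on D1 and between 343 and 3080 on D4, with KO D4 replicate 2 included. The 4 satellite cell and myoblast markers were between 263 and 515 TPM on D4 and between 14.9 and 23.8 on D14 in WT. The 3 fibro-adipogenic progenitor markers were between 610 and 1070 TPM on D1 and between 2950 and 3600 on D4 in WT. On D14 they were between 525 and 1360 TPM. The 3 proliferating cell markers were between 19.5 and 81.1 TPM on D4 and between 0.85 and 1.06 on D14 in WT. The 6 myofibre markers went the other way, at between 24200 and 52500 TPM on D4 and between 71800 and 76400 on D14. No marker of these lists was at 0 in any group. Their part in the time steps was not tested. After each day's mean was removed, the genes most similar to Dynlt1f over the 24 injured libraries were Cd180, a leukocyte surface receptor (r = 0.97), Pacc1 (0.97) and Sin3b (0.96).

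The likeness of the other genes was given by the same measure, Pearson's r of log2(TPM + 1) over 24 libraries with the day means removed, which leaves the genotype difference in. Dynlt1b was more like Tmem181b-ps (r = 0.93) than like any other gene tested, but with the mean of each genotype and day removed r was 0.79 and 4133 tested genes, Dynlt1b itself counted, had a higher one. Outside the 6 it was most like Gsdme (0.86), Dusp14 (0.83) and 9030407P20Rik (0.82). Outside the 6, Tmem181b-ps was most like Zkscan3 (0.9), Rps13 (0.85) and Gsdme (0.84). Nnt stood more alone, with Lzts1 at 0.76, Gm42846 at 0.75 and an assembled locus without a gene name at 0.71. Dynlt1a was most like Jmjd6 (0.91), Cactin (0.87) and Plekha3 (0.87), and Dynlt1c like Dynll1, another dynein light chain (0.89), Pcdh18 (0.88) and E2f1 (0.87). Between Dynlt1b and Nnt, r was 0.6, and once the mean of each genotype and day was removed it was -0.52. The points share libraries and their scale, so these values describe likeness only.

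To see whether the rest of the dynein motor moved, 30 genes of the dynein and dynactin complexes and their adaptors were examined, of which 28 were tested. Between KO and WT averaged over the days 0 of 28 passed the test, beside 0.00636% of all genes, and the median of the list was -0.09 against -0.07 for all genes. The lowest p were those of Actr10, a dynactin subunit, at -0.17 (SE 0.105), and Dctn2, another, at -0.11 (SE 0.0656), both with adjusted p = 0.861 (limma). None passed on D1, D4, D7 or D14 either, where 0.00636%, 0%, 0% and 0% of all genes did, and at an unadjusted p under 0.05 there were 2, 6, 0 and 1 of the list, beside 845, 3568, 481 and 324 of all genes. The 1 gene called on D1 was Gm42793, named after its value was seen, at 1.68 ± 0.243. Dynlt3, the other Tctex-type light chain, had KO means between 72.3% and 120% of WT. Against this, Dynlt1-ps1 was at -0.75 ± 0.253 in KO against WT on average and did not pass (adjusted p = 0.861, limma). It cannot be told from the coding part of Dynlt1a, Dynlt1c or Dynlt1f, and 91.4% of its windows of 100 bases are also found in Dynlt1b.

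Over time, genes of the dynein list passed the test at several steps. From control to WT D1, 21 of 28 were higher and 0 lower, beside 55.4% and 5.64% of all genes, with a median of 0.72 against 0.66, led by Dynll1, a light chain, at 1.79 (adjusted p = 0.0013), and Capza1, an actin capping subunit of dynactin, at 1.52 (0.00366, limma). From D1 to D4 in WT, 2 rose and 1 fell, beside 19.8% of all genes called: Dynlrb1, a light chain, by 0.58 (adjusted p = 0.0146), Dctn2 by 0.43 (0.0273), and Hook1, a cargo adaptor, fell by 1.53 (7.48e-05, limma). From D4 to D7 in WT, 5 fell and 1 rose, beside 12.3% of all genes called. The largest falls were those of Hook2, a cargo adaptor, at -0.94 (adjusted p = 0.0302), and the dynactin subunit Dctn3 at -0.68 (0.0135, limma). The cargo adaptor Hook3 rose by 0.81 (adjusted p = 0.0298, limma), and all of these were named after their values were seen. From D7 to D14, 11 of 28 fell and 0 rose, beside 30.9% and 0.923% of all genes, with Capza1 at -1.17 and Dynll1 at -1.11 (adjusted p = 0.0229 and 0.0276, limma). The median of -0.41 stood beside -0.45 for all genes. In KO, 3 fell from D1 to D4, with Hook1 at -0.95 (adjusted p = 0.00352, limma), 0 passed from D4 to D7 with 2 at an unadjusted p under 0.05, and 1 rose from D7 to D14, again Hook1, at 0.89 (adjusted p = 0.0487, limma), beside 19.4%, 0% and 0.56% of all genes called.

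The genes around Nnt in function were 26 genes of NADPH supply and of the mitochondrial redox system it serves, with some cytosolic enzymes, and all were tested. Between KO and WT averaged over the days 0 of 26 passed, beside 0.00636% of all genes, with a median of 0.02 against -0.07 for all genes. Slc25a1, the mitochondrial citrate carrier, was at 0.32 (SE 0.168) and Me3, a malic enzyme of mitochondria, at 0.26 (SE 0.198), both with adjusted p = 0.861 (limma). None passed on D1, D4, D7 or D14, where 0.00636%, 0%, 0% and 0% of all genes did. Slc25a1 was uneven over the days, at 0.28, -0.34, -0.27 and 1.63 on D1, D4, D7 and D14, the last with adjusted p = 0.22 (limma). From control to WT D1, 11 rose and 2 fell, beside 55.4% and 5.64% of all genes. Mthfd2, a mitochondrial folate enzyme, rose by 2.51 (adjusted p = 0.00103) and Pgd, of the pentose phosphate pathway, by 2.38 (0.00142), whereas Me3 fell by 0.72 (0.0177) and Prdx3, a mitochondrial peroxidase, by 0.44 (0.0383, limma). Nnt, which is not counted in the list, fell like these 2. From D1 to D4 in WT, 3 rose and 4 fell, beside 14.6% and 5.27% of all genes, among them the isocitrate dehydrogenases Idh2, which rose by 1.23 (adjusted p = 0.0217), and Idh1, by 1.03 (0.0165), and the malic enzymes Me1 and Me3, which fell, at -1.22 and -1.18 (0.00528 and 0.041, limma). From D4 to D7 in WT, 1 rose and 1 fell, Me3 at 1.38 (adjusted p = 0.0315) and Mthfd1, a folate enzyme, at -0.71 (0.0156, limma), beside 12.3% of all genes called. From D7 to D14, 1 rose and 9 fell, beside 0.923% and 30.9% of all genes, with Me1 at 0.81 (adjusted p = 0.039), Mthfd2 at -1.78 (0.00579) and Me2 at -1.36 (0.0237, limma). In KO, 1 rose and 4 fell from D1 to D4, beside 7.18% and 12.2% of all genes. At the later steps 0 of the list passed, beside 0% and 0.56% of all genes. There 3 and 4 of the list had an unadjusted p under 0.05, beside 1555 and 3035 of all genes (limma).

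To see whether the genotype difference spread over the chromosome, the 10 tested genes on each side of the Dynlt1 copies, of Nnt and of Gsdme were examined. Of these 60 genes, 0 passed between KO and WT averaged over the days, beside 0.00636% of all genes. None passed on D1, D4, D7 or D14 either, where 0.00636%, 0%, 0% and 0% of all genes did. As so few of all genes passed, these counts cannot tell whether the difference spread. The medians were -0.06, -0.04 and -0.09 around the 3 loci against -0.07 for all genes. Beside the Dynlt1 copies, within chr17:5410870-8147788, the lowest p were those of Gtf2h5 at -0.18 (SE 0.0903) and Fndc1 at -0.41 (SE 0.232). Beside Nnt they were those of Tmem267 at 0.35 (SE 0.191) and Parp8 at -0.22 (SE 0.132), and beside Gsdme those of Gimap3 at -0.24 (SE 0.167) and Hotairm1 at 0.3 (SE 0.249). All 6 had adjusted p = 0.861 (limma). A smaller difference than that of Dynlt1b may have been missed with 3 libraries a group.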

How the data were processed

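The deposited values were TPM per gene, computed by the authors from paired-end reads of SMARTER mRNA libraries in 2 tables quantified separately, one of injured WT and KO muscle and one of control and WT D1 muscle. The submitters' notes name mm10. The aligner, counter and strand setting are not given in the sources used here. Feature lengths in the tables equalled transcript lengths of GENCODE M21, which gave positions and sequences. No column without a sample was used or left out (0).

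Genes with at least 1 TPM in at least 3 libraries were kept, log2(TPM + 1) was fitted with limma 3.58.1 (trend) in R 4.3.3 with 1 mean per group, and p-values were adjusted by Benjamini and Hochberg over all genes tested. An adjusted p under 0.05 was called. The fit was tested on simulated data. TPM hold no read totals, so depth is unknown. Groups and replicates followed the labels. With 3 against 3 libraries an exact permutation test cannot go below 0.1, so none was used.

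The 6 genes, the lists and the tests were chosen with earlier results of these data known. Named genes were the 6, Gsdme, relatives by name, the 3 genes most like each in r, and from each list up to 2 called genes a direction with the largest difference, or for KO against WT the 2 with the lowest p. Alternatives were a pseudocount of 0.1, no filter, a minimum of 5 TPM, median-of-ratios scaling, quantile normalization, only the compared groups, a replicate block and each library left out. Summing the 4 Dynlt1 copies or both Nnt rows was chosen after seeing the data.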

Additional observations from a re-analysis of the deposited data

How the results depend on the processing

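From control to WT D1 the 5 calls among the 6 genes became 3 with no filter, 3 at a minimum of 5 TPM, 1 under median-of-ratios scaling and 1 under quantile normalization, and between 3 and 6 with 1 library left out. The 8 calls over the WT time steps became 3, 5 and 5 with no filter and under the 2 scalings, and between 3 and 9 with 1 library left out. The 0 calls over the KO steps became 1 under median-of-ratios scaling and between 0 and 3 with 1 library left out. Of 13 calls, 3 were kept whichever library was left out, those of Dynlt1b, Dynlt1f and Tmem181b-ps at WT D1. The F test gave 0 calls among the 6 genes in all settings run, although with no filter it called 6 of all genes. For KO against WT averaged over the days, the dynein, NADPH and neighbour lists gave 0 calls in all settings run. The settings counted over all genes called between 1 and 3 genes there. Single days were not recounted for the lists. Same-numbered libraries of the groups had correlations of their deviations between -0.4 and 0.39, so the numbers were not shown to pair them. The replicate block left 5, 8, 0 and 0 calls of the 6 genes in the control step, the WT steps, the KO steps and the F test.

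Directions turned with median-of-ratios scaling and with quantile normalization, in that order, for Dynlt1c from D4 to D7 in WT (0.05 and 0.06), from D7 to D14 in WT (0.2 and 0.32), from D1 to D4 in KO (0.14 and 0.18) and from D7 to D14 in KO (0.1 and 0.16), for Tmem181b-ps from D4 to D7 in WT (0.09 and 0.08) and from D1 to D4 in KO (0.07 and 0.07), and for Dynlt1f from D1 to D4 in KO (0.13 and 0.09). At WT D1 against control Dynlt1b turned under median-of-ratios scaling (-0.03), and Dynlt1a (-0.11) and Dynlt1c (-0.09) under quantile normalization, which also turned Dynlt1a (0.07) and Tmem181b-ps (0.06) from D7 to D14 in KO. With 1 library left out, values crossed 0 for Tmem181b-ps (-0.32 to 0.01) and Nnt (-0.1 to 0.23) from D4 to D7 in WT, and from D1 to D4 in KO for Dynlt1a (-0.19 to 0.31), Dynlt1b (-0.06 to 0.44), Dynlt1c (-0.18 to 0.24), Dynlt1f (-0.34 to 0.3) and Tmem181b-ps (-0.25 to 0.15). They also did so for Tmem181b-ps from D4 to D7 (-0.38 to 0.08) and Dynlt1c from D7 to D14 (-0.28 to 0.1) in KO. Of these 35 reversed values, 2 belonged to called differences, and the cause was not tested. The compared groups alone gave no value for the averages, the F test, the lists or the control comparison, and the minimum of 5 TPM none for genes it removed.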

Other observations

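Both tables hold WT D1, so the same libraries had 2 quantifications. Tmem181b-ps was 6.02, 7.93 and 4.24 TPM in the table of injured muscle and 5.08, 6.44 and 3.82 TPM in the table with the controls, a gap of 18.5%, 23.1% and 11%. The largest gap was 11.4% for Dynlt1a and between 2.09% and 2.69% for Dynlt1b, Dynlt1c, Dynlt1f and Nnt, and the median gap over all genes with at least 1 TPM was 0.216%. The share of Dynlt1b in the 4 copies was 68.4% and 68.5% in the 2 tables.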
